A study of Mus musculus with 7 samples.

Results

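The cell cycle and proliferation genes described here were 36 mouse genes chosen by name, 16 that act in DNA replication and 20 that act in mitosis, of 22629 rows in a table of RNA-seq counts. All 36 were found through their Ensembl identifiers and all 36 passed the filter on low counts, which left 17489 genes to test. RNA had been sequenced from 7 subcutaneous (s/c) pancreatic ductal adenocarcinoma (PDA) tumors, each harvested 2 weeks after inoculation of C57BL/6 mice with cancer cell line 1242. That line came from a mouse tumor in which Pdx1-Cre activates LSL-Trp53 R172H/+ in the pancreas, so both groups carry mutant Trp53. In 3 tumors, the cells carried SpCas9 and a scrambled guide (sgScramble). In the other 4 (sgScramble-icOVA), the sgScramble cells held a doxycycline (Dox)-inducible vector for intracytoplasmic ovalbumin (icOVA). These cells had been sorted and cloned from single cells, and were induced with Dox in the food of the mice. For the sgScramble tumors, the sources used here did not give whether the cells held that vector or were a clone. Nor did they give whether the mice received Dox. For s/c tumors of the ovalbumin-inducible cells, the study's methods give more inoculated cells than their general number for s/c tumors. Which number applied to the sgScramble tumors was not given. Effects of icOVA, of the vector, of Dox, of the choice of a clone and of any difference in inoculated cells therefore cannot be told apart. The comparison asked how tumors with the added antigen differed from tumors without it.

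As background, a dividing cell first licenses its replication origins by loading the MCM helicase, then fires them in S phase under cyclin E and cyclin A kinases, and later condenses and separates its chromosomes under cyclin B and Cdk1. The genes for the first steps are mostly transcribed at the G1 to S boundary under E2F factors. Those for mitosis are mostly transcribed in G2 under complexes that hold B-Myb and FoxM1. In tumors, mRNA of both classes is commonly used as a measure of proliferation.

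The libraries held 30904855 to 37510591 counts, and the smallest count of any of the 36 genes in any tumor was 190. The OVA row, which checks the labels, stood at 2.58 to 4.35 counts per 1000000 (CPM) in the sgScramble tumors and at 98.2 to 308 CPM in the icOVA tumors. Of the epithelial keratins, Krt19 was at 582 to 631 and 364 to 822 CPM (log2 fold change 0.059, SE 0.241, adjusted p = 0.896), and the sum of 6 epithelial markers was 4360 to 4565 and 2877 to 4789 CPM. Among host cell markers, Ptprc, which encodes the leukocyte antigen CD45, and Cd3e, part of the T cell receptor complex, rose by 1.08 and 1.27 on the log2 scale (adjusted p = 0.0271 and 0.0271). The summed level of 6 leukocyte markers, none at 0, was 643 to 894 CPM in sgScramble and 1131 to 1519 CPM in icOVA tumors, that of 6 T cell markers 75.3 to 124 and 169 to 264 CPM, and that of 6 fibroblast markers, of which edgeR, DESeq2 and limma-voom called 0 and 0 had an unadjusted p under 0.05, 6663 to 15686 and 5607 to 36504 CPM. These are whole tumors, so a change in the share of dividing cells, in the share of each cell type and in RNA per cell cannot be told apart for any gene below, and the part of leukocytes and of fibroblasts in the results was not tested.

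In the icOVA tumors 5 replication genes rose, and no mitosis gene passed the test. In the quasi-likelihood test of edgeR, with p-values adjusted by Benjamini-Hochberg over 17489 genes and a threshold of 0.05, Ccne2, Rrm2, E2f1, Cdc6 and Mcm3 were higher, by 1.23- to 1.59-fold. That was 5 of 36 genes, against 3.36% of all genes tested that were called higher, and against 4.13% of the 10344 genes whose mean level lay between those of the lowest and the highest of the 36. None of the 36 was called lower, by edgeR, DESeq2 or limma-voom or at an unadjusted p under 0.05, where 2.54% of all genes were called lower by edgeR and 13.8% had an unadjusted p under 0.05 in that direction. At that unadjusted level 18 of the 36 were higher, 11 of 16 replication and 7 of 20 mitosis genes, beside 13.4% of all genes. DESeq2 called 11 of the 36 higher, 9 of them replication genes (8.91% of all genes), and limma-voom called Ccne2, Cdc6 and Rrm2 (2.96% of all genes). These 3 genes were called in each of the 7 alternative fits that kept all tumors.

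The log2 fold change was above 0 for 15 of 16 replication genes and for 18 of 20 mitosis genes, with medians of 0.25 and 0.16, whereas it was above 0 for 49.4% of all genes tested and had a median of -0.0048 over them. The mitosis median fell to 0.088 without sgScramble tumor 5 and was 0.25 without sgScramble tumor 4. All 4 icOVA tumors lay above all 3 sgScramble tumors for 10 of 16 replication and 3 of 20 mitosis genes. Over all genes that held for 11.3%, and for 12.6% of those in the same range of levels, and for none of the 36 did all icOVA tumors lie below, which held for 13.3% of all genes. The plot of changes by role shows the filled points, those that passed the test, only among the first 16 genes. Leaving out sgScramble tumor 1 or 5, or icOVA tumor 15 or 2, left 0 of the 36 genes called, while 0, 0, 0 and 6 of all genes were then called higher. Without sgScramble tumor 4, icOVA tumor 16 or icOVA tumor 18 the calls were 8, 7 and 4, with Ccne2, Rrm2 and Mcm3 in each. The 8 included Ccnb1 and Top2a. Over all genes, 862, 1014 and 615 were called higher in these 3 fits, beside 588 with every tumor kept.

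**Figure D1:**
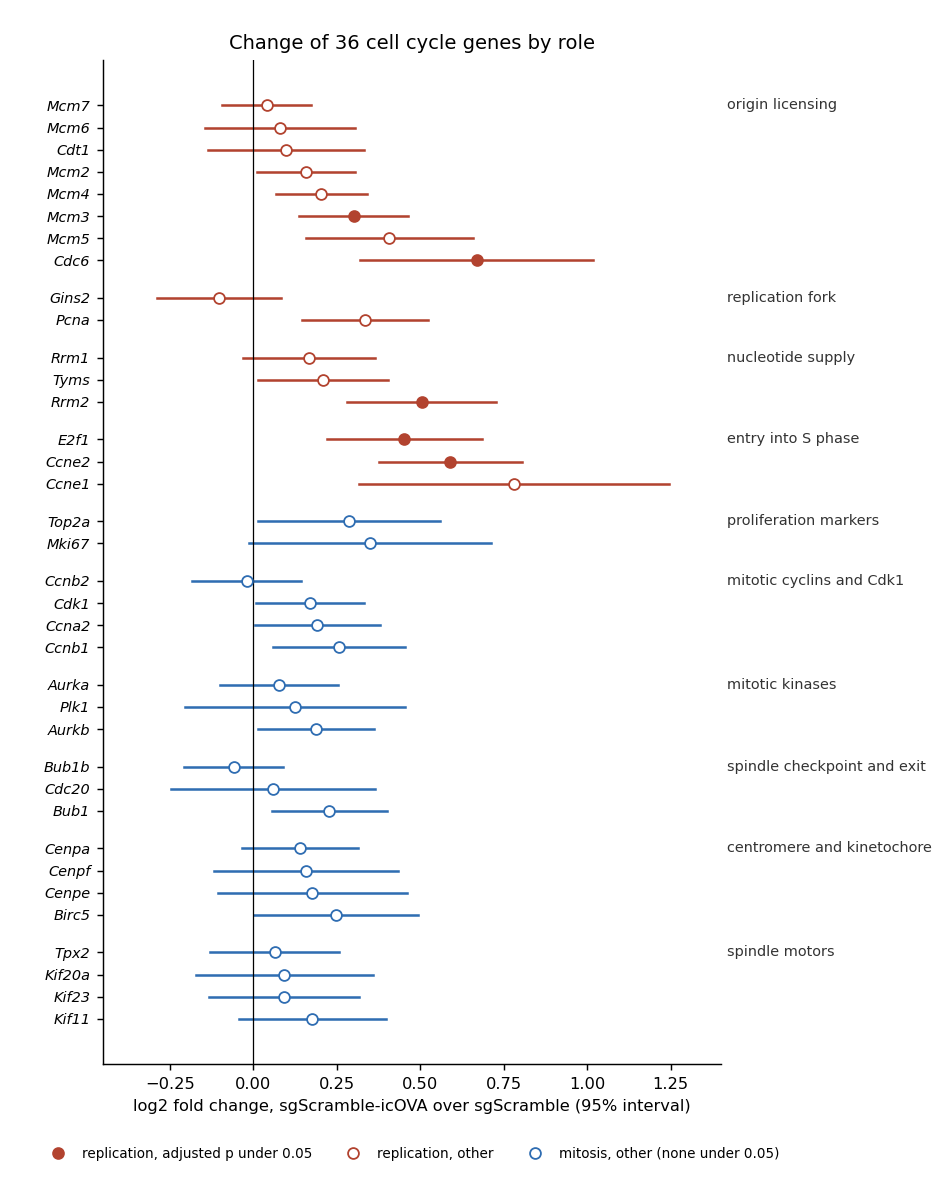
Log2 fold change (x axis, sgScramble-icOVA over sgScramble, with its 95% interval) of the 36 genes grouped by role, replication in red and mitosis in blue, with filled points for an adjusted p under 0.05 by edgeR. The 5 filled points, Mcm3, Cdc6, Rrm2, E2f1 and Ccne2, are replication genes, and the points of Gins2, Ccnb2 and Bub1b lie below 0.

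Entry into S phase is driven by E2f1, a transcription factor held in check by the retinoblastoma protein, and by cyclin E1 (Ccne1) and cyclin E2 (Ccne2), which activate Cdk2. Values by tumor are given throughout in the order sgScramble 1, 4 and 5, then icOVA 15, 16, 18 and 2. Ccne2 (ENSMUSG00000028212.16, chr4:11191351-11204779) was at 14.8, 17.5 and 15.1 CPM and at 23.2, 23.1, 25.3 and 23.6 CPM. Every icOVA tumor exceeded every sgScramble tumor, and the icOVA tumors were close to each other. Its mean was 15.8 ± 1.5 CPM (SD, n = 3) in sgScramble and 23.8 ± 0.989 CPM (SD, n = 4) in icOVA tumors, and the log2 fold change was 0.59 (SE 0.0921, 95% interval 0.38 to 0.80, adjusted p = 0.0253 by edgeR), the smallest adjusted p among the 36 genes. Ccne2 shares 609 of its 3495 exon bases with Ints8 on the opposite strand, for which the log2 fold change was -0.14 (SE 0.0763). Whether reads were counted by strand was not given in the sources used here.

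E2f1 (ENSMUSG00000027490.17, chr2:154559407-154569892) was at 15.8, 16.6 and 15.6 CPM, a narrow range, and at 21.6, 19.1, 23.5 and 23.4 CPM. The groups did not overlap, although icOVA tumor 16 was nearer to the sgScramble tumors than the others were. The log2 fold change was 0.45 (SE 0.100, adjusted p = 0.0430). The largest log2 fold change among the 36 was that of Ccne1, with 5.73, 8.96 and 6.08 CPM and 13.9, 9.60, 12.5 and 11.7 CPM, the lowest CPM of any of them. The lowest icOVA tumor, 16, was just above sgScramble tumor 4, and Ccne1 missed the threshold (log2 fold change 0.78, SE 0.201, adjusted p = 0.0609). All 3 genes of this role were thus higher in every icOVA tumor than in any sgScramble tumor, and 2 of them passed the test.

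**Figure D2:**
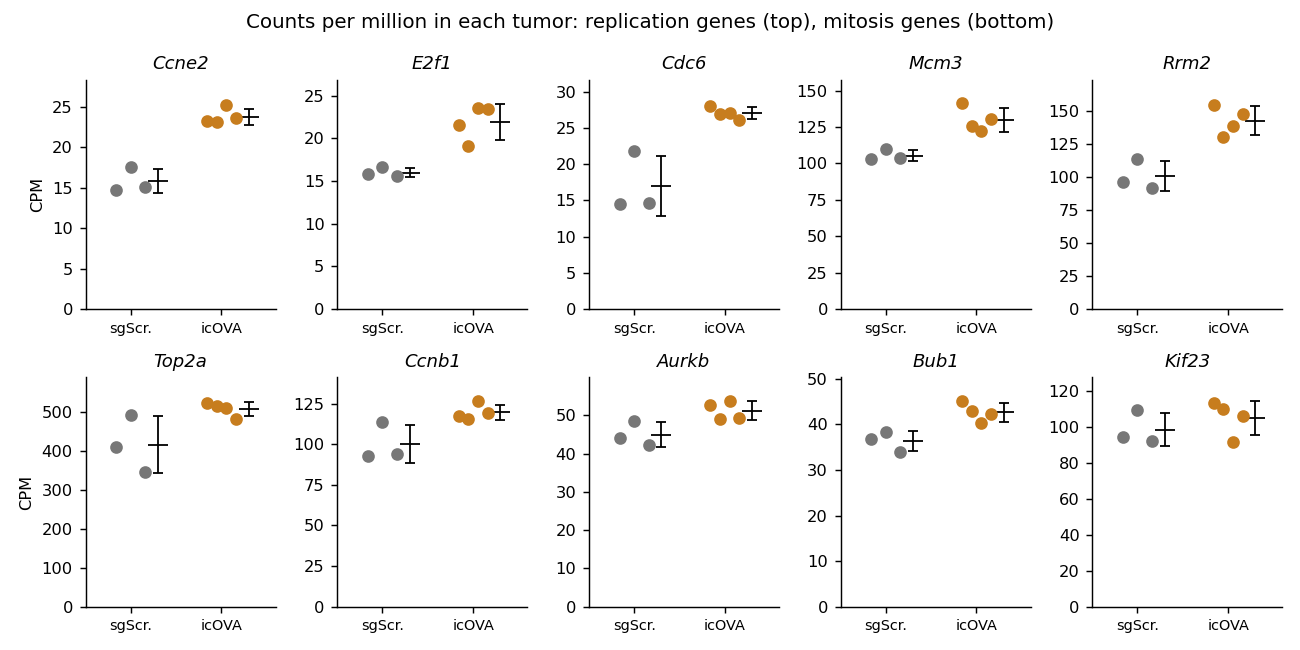
CPM (y axis, from 0) in each of 3 sgScramble (gray) and 4 sgScramble-icOVA (orange) tumors, with mean and SD beside them, for the 5 replication genes that rose (top) and for 5 mitosis genes (bottom). The 2 groups do not overlap in any top panel, a row of genes chosen for passing the test. In the bottom row they overlap for Top2a and Kif23, and among all 20 mitosis genes they overlap for 17.

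Origin licensing is carried out by Cdc6 and Cdt1, which load the ring of Mcm2 to Mcm7 onto DNA. Cdc6 (ENSMUSG00000017499.15, chr11:98907801-98923940) was at 14.6, 21.8 and 14.6 CPM and at 28.0, 26.9, 27.1 and 26.0 CPM. The 4 icOVA tumors lay within 2 CPM of each other, whereas sgScramble tumor 4 stood above the other two by about 7 CPM. The log2 fold change was 0.67 (SE 0.151, 95% interval 0.32 to 1.02, adjusted p = 0.0449), the largest among the genes that passed. Its partner Cdt1 had 32.1, 34.8 and 30.2 CPM and 32.4, 30.7, 37.9 and 37.5 CPM, overlapping ranges (adjusted p = 0.563).

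Among the 6 helicase subunits the log2 fold changes ran from 0.040 (Mcm7) to 0.41 (Mcm5), and differences between subunits were not tested. Mcm3 (ENSMUSG00000041859.10, chr1:20802968-20820312) was at 103, 109.8 and 104 CPM and at 141, 125, 122 and 130.4 CPM, with no overlap, and it rose by 0.30 on the log2 scale (SE 0.0702), with an adjusted p of 0.0490, just under the threshold. Mcm5, Mcm4 and Mcm2 also had no overlap between groups, with log2 fold changes of 0.41, 0.20 and 0.16 and adjusted p-values of 0.0651, 0.0811 and 0.156. The most abundant subunit mRNA, Mcm6, was at 159.9, 152 and 169 CPM and at 183, 178, 143 and 174 CPM, and icOVA tumor 18 was the lowest of all 7 (log2 fold change 0.081, SE 0.0970, adjusted p = 0.624). For Mcm7 the difference was 0.040 on the log2 scale with a 95% interval of -0.094 to 0.17. Since the subunits form 1 complex in equal numbers, the sum of the 6 was also taken, and it was 642 to 662 CPM in sgScramble and 712 to 782 CPM in icOVA tumors.

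At the replication fork, Pcna, the sliding clamp of the DNA polymerases, was at 116, 125 and 116 CPM and at 163, 139, 139 and 158 CPM. Each icOVA tumor was above each sgScramble tumor, but the adjusted p was 0.0529 (log2 fold change 0.34, SE 0.0811), and a processed copy, Pcna-ps2, held counts equal to 1.91% of those of Pcna. For the copies of Tyms, Ccnb1 and Ccnb2 this share was 0.43, 1.09 and 0.40%. Gins2, a subunit of the complex that activates the helicase, had the only negative change among the replication genes (-0.10, SE 0.0802, adjusted p = 0.438). Of its 4097 exon bases, 2758 also lie in exons of Gse1 on the opposite strand, whose log2 fold change was -0.25 (SE 0.0816), so its value is uncertain. Shorter exon overlaps on the opposite strand were found for Mcm7, Ccna2, Plk1, Cdc20 and Kif20a (53 to 1271 bases for the largest of each).

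Nucleotide supply depends on ribonucleotide reductase, of which Rrm1 encodes the large subunit, made at a steadier level, and Rrm2 the small subunit, made in S phase, and on thymidylate synthase (Tyms). Rrm2 (ENSMUSG00000020649.11, chr12:24708241-24714146) was at 96.6, 114 and 92.1 CPM and at 155, 130.2, 139 and 148 CPM. The lowest icOVA tumor exceeded the highest sgScramble tumor, and the log2 fold change was 0.50 (SE 0.0964, 95% interval 0.28 to 0.73, adjusted p = 0.0328). Rrm1 was at 114, 132 and 113 CPM and at 146, 127, 136 and 127 CPM, with sgScramble tumor 4 above icOVA tumors 16 and 2 (log2 fold change 0.17, SE 0.0853, adjusted p = 0.251). Tyms differed by 0.21 (SE 0.0843, adjusted p = 0.161), again with sgScramble tumor 4 above icOVA tumor 16. The difference between the changes of Rrm2 and Rrm1 was not tested.

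The genes most used as markers of proliferation did not pass the test. Top2a, the topoisomerase that untangles chromosomes before they separate, was at 410.4, 492 and 346 CPM and at 524, 515, 512 and 481 CPM. The sgScramble tumors were spread over a wider range than the icOVA tumors, and sgScramble tumor 4 was above icOVA tumor 2 (log2 fold change 0.29, SE 0.118, adjusted p = 0.167). Mki67, which encodes the Ki-67 antigen of dividing cells, was at 203, 247 and 168 CPM and at 322, 244, 239 and 246 CPM (log2 fold change 0.35, SE 0.157, adjusted p = 0.197). Here icOVA tumor 15 was well above the rest, and the other 3 were slightly below sgScramble tumor 4.

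None of the mitotic cyclins, nor their kinase, passed the test. Ccna2, the S phase and G2 cyclin A2, was at 135, 161 and 143 CPM and at 175, 154, 169 and 169 CPM, and sgScramble tumor 4 was above icOVA tumor 16 (log2 fold change 0.19, SE 0.0812, adjusted p = 0.176). Ccnb1, the main cyclin of mitosis, was at 92.9, 113 and 94.2 CPM and at 117, 116, 126 and 119 CPM. Its groups did not overlap, but sgScramble tumor 4 came close to icOVA tumor 16, and the log2 fold change of 0.26 (SE 0.0852) gave an adjusted p of 0.107 by edgeR and 0.0424 by DESeq2. Cdk1 and Ccnb2, its partner kinase and a second B cyclin, differed by 0.17 and -0.019, with 95% intervals of 0.0096 to 0.33 and -0.18 to 0.14.

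Among the mitotic kinases, Aurkb, the catalytic part of the chromosomal passenger complex, was at 44.0, 48.5 and 42.3 CPM and at 52.8, 49.0, 53.8 and 49.2 CPM, with no overlap but an adjusted p of 0.156 (log2 fold change 0.19, SE 0.0748). For Aurka and Plk1, which act at spindle poles, the differences were 0.077 and 0.12, with 95% intervals of -0.10 to 0.25 and -0.21 to 0.45. The spindle checkpoint genes were divided. Bub1, a checkpoint kinase, was at 36.7, 38.4 and 34.0 CPM and at 45.2, 42.8, 40.2 and 42.2 CPM, again without overlap (log2 fold change 0.23, SE 0.0741, adjusted p = 0.103 by edgeR and 0.0329 by DESeq2). Bub1b, its relative that restrains the anaphase-promoting complex, was at 76.5, 75.6 and 73.0 CPM and at 74.3, 75.7, 67.1 and 71.2 CPM, and the icOVA tumors were on average the lower ones (log2 fold change -0.058, SE 0.0638, adjusted p = 0.588). Cdc20, which activates that complex, differed by 0.059 (SE 0.132).

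Of the centromere and kinetochore genes, none separated the groups. Birc5 (survivin, a subunit of the passenger complex) was at 55.3, 69.5 and 60.3 CPM and at 73.6, 64.2, 81.5 and 73.5 CPM, and Cenpe, a kinetochore motor, at 110.0, 125 and 86.4 CPM and at 129.9, 120.2, 121 and 113 CPM. In both, sgScramble tumor 4 was above at least 1 icOVA tumor, and the adjusted p-values were 0.182 and 0.380 for log2 fold changes of 0.25 and 0.18. Cenpa, the histone variant of centromeres, and Cenpf differed by 0.14 and 0.16 (SE 0.0746 and 0.119). The spindle motors and their partner gave log2 fold changes of 0.064 (Tpx2), 0.093 (Kif20a), 0.093 (Kif23) and 0.18 (Kif11), with adjusted p-values from 0.269 to 0.655. Kif23, a motor of the central spindle, was at 94.3, 109 and 92.3 CPM and at 113, 110.1, 91.6 and 106 CPM, with icOVA tumor 18 the lowest of all 7. Kif11, the motor that separates the spindle poles, was at 49.5, 53.2 and 44.1 CPM and at 61.0, 55.8, 49.5 and 55.0 CPM. Its counts were the same in all 7 tumors as those of another Ensembl gene without a symbol in the annotation used, so its level is uncertain.

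Set beside each other within a tumor, the replication genes were higher relative to the mitosis genes in the icOVA tumors. The mean log2 CPM over the 16 replication genes was 5.56, 5.73 and 5.57 in the sgScramble and 6.00, 5.84, 5.93 and 5.94 in the icOVA tumors. Over the 20 mitosis genes it was 6.24, 6.43 and 6.16 in the sgScramble and 6.51, 6.37, 6.43 and 6.41 in the icOVA tumors. The groups did not overlap for the first mean (5.62 ± 0.0982 and 5.93 ± 0.0667, SD, n = 3 and 4), and they overlapped for the second (6.28 ± 0.136 and 6.43 ± 0.0577), where sgScramble tumor 4 was above icOVA tumors 16 and 2. The replication mean minus the mitosis mean was -0.68, -0.69 and -0.59 in the sgScramble and -0.51, -0.53, -0.50 and -0.47 in the icOVA tumors, with no overlap. It averaged -0.66 ± 0.0578 and -0.50 ± 0.0281 (SD, n = 3 and 4), a gap between groups of 0.15. With the median over the genes in place of the mean the gap was 0.26. These are summaries of chosen genes and were given no test, and mean CPM values are not scaled by gene length, so the sign of the difference itself has no meaning.

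**Figure D3:**
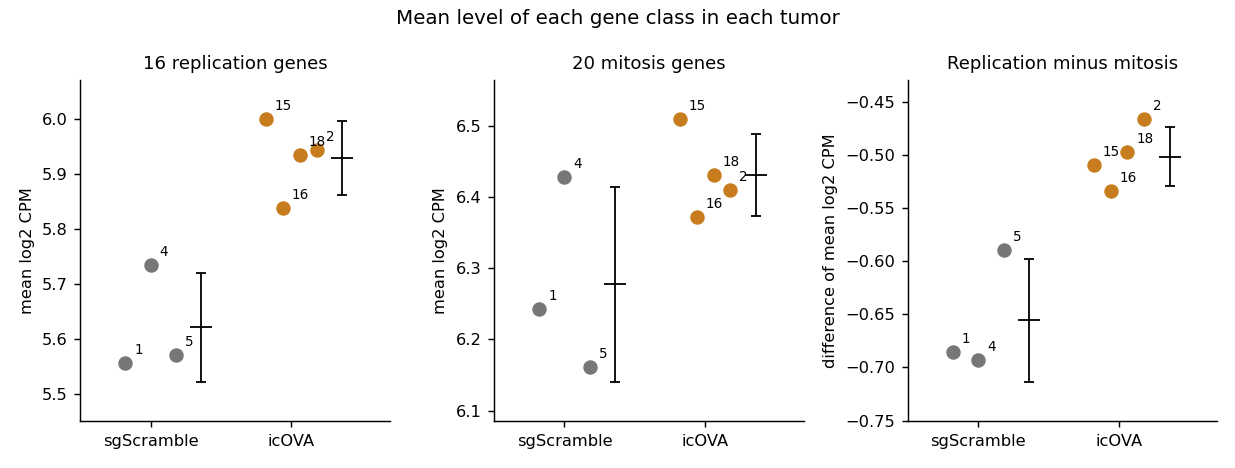
Mean log2 CPM of the 16 replication genes (left) and of the 20 mitosis genes (middle), and their difference (right), in each sgScramble (gray) and sgScramble-icOVA (orange) tumor, labelled by tumor number, with mean and SD per group; the y axes do not start at 0. The icOVA tumors lie above the sgScramble tumors on the left and on the right, and sgScramble tumor 4 lies among them in the middle.

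Among the controls, 1 tumor stood above the others for most of the genes. Of the 3 sgScramble tumors, tumor 4 was the highest for 13 of 16 replication and 18 of 20 mitosis genes. The share over all genes was not counted for this rank or for the ranks of icOVA tumors given below. Such ranks may therefore not be particular to these genes. Every icOVA tumor was above sgScramble tumors 1 and 5 for 12 replication and 11 mitosis genes, beside 10 and 3 when tumor 4 was included. Fewer controls raise this count for any gene, and over all genes the share was 20.5% against tumors 1 and 5 and 11.3% against all 3. The count without tumor 4 was chosen after the values were seen. Tumor 4 was also the sgScramble tumor with the highest sums of leukocyte markers (894 CPM, beside 658 and 643), T cell markers (124, beside 75.3 and 97.5) and fibroblast markers (15686, beside 7110 and 6663). Whether these move with the cell cycle genes through cell composition was not tested. Among the icOVA tumors, tumor 15 was the highest of all 7 for 10 replication and 11 mitosis genes, and tumor 16 the lowest icOVA tumor for 9 and 10. Tumor 16 had the lowest leukocyte, T cell and fibroblast sums of the 4 (1131, 169 and 5607 CPM). Of these sums, that of fibroblasts was lower in icOVA tumor 16 than in sgScramble tumor 4. Those of leukocytes and T cells were higher, as was the replication mean, and no link between them was tested. The 36 genes together took 0.288 to 0.338% of all counts in sgScramble and 0.336 to 0.373% in icOVA tumors. The map of the 36 genes by tumor shows these patterns.

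**Figure D4:**
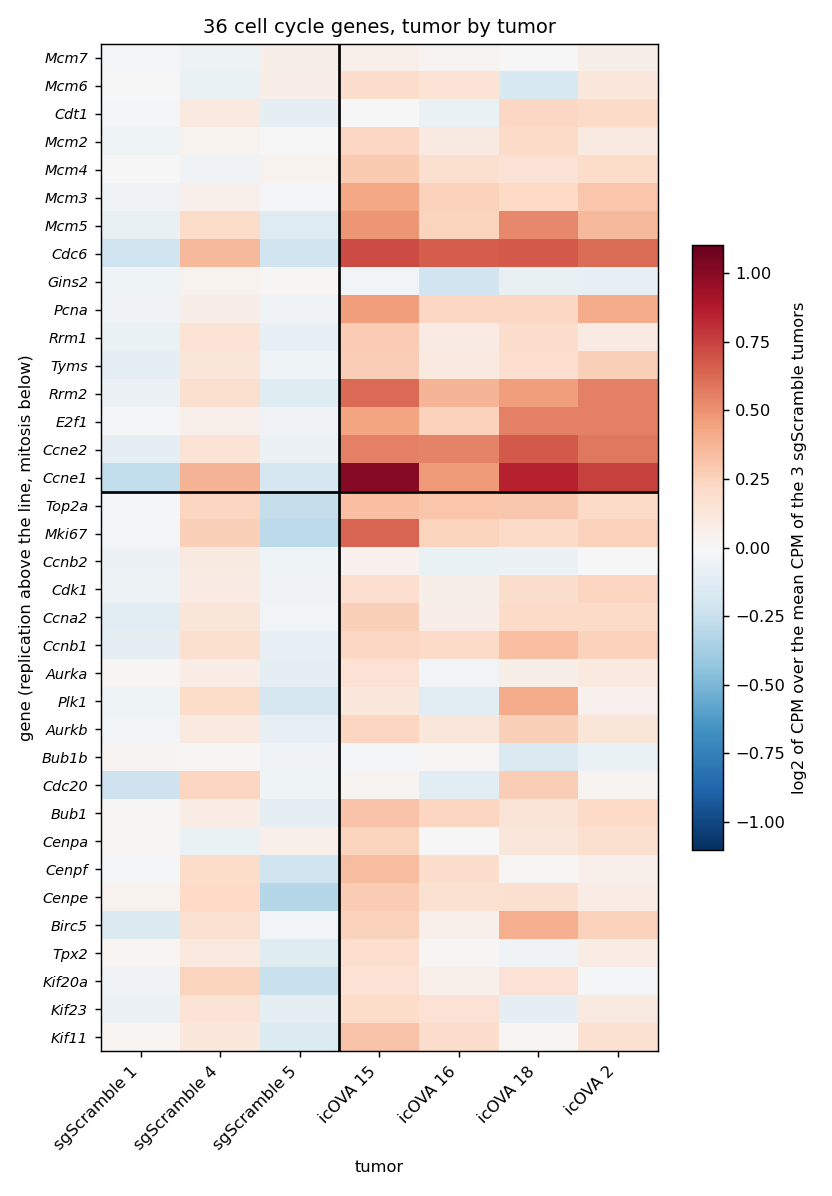
Log2 of each gene's CPM over its mean CPM in the 3 sgScramble tumors (color scale), for 36 genes (rows, replication above the line) in 7 tumors (columns, sgScramble left of the line). The column of sgScramble 4 is red for most mitosis genes, and the deepest red cells are those of Ccne1, Cdc6 and Ccne2 in icOVA tumors.

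Levels between genes can be compared only per length. For 31 of the 36 a transcript was annotated as principal, and the longest such transcript was used. Per kilobase, the mean level over all 7 tumors ran from 4.88 CPM per kb for Ccne1 to 90.0 for Pcna and 89.7 for Top2a. Birc5, Rrm2, Mcm6 and Ccna2 followed at 72.1, 56.9, 56.9 and 53.3 CPM per kb. The order of the last 3 differed between groups, with Rrm2, Mcm6 and Ccna2 at 45.9, 55.1 and 49.3 CPM per kb in sgScramble and at 65.2, 58.3 and 56.3 in icOVA tumors. Pcna and Top2a did not differ beyond their spread (76.3 to 108 and 66.3 to 100 CPM per kb over the tumors), the range of Birc5 (58.4 to 86.0) overlapped both, and those of Rrm2, Mcm6 and Ccna2 overlapped each other. The helicase subunits, which are needed in equal numbers, ran from 25.5 (Mcm5) to 56.9 (Mcm6) CPM per kb. The genes at the low end, Ccne1, Gins2, Cenpf and Tyms, were at 4.88, 5.08, 8.86 and 10.8 CPM per kb. Scaling to the principal transcript assumes that this isoform is the one expressed, which counts per gene cannot show.

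The sequences before the start sites are shown for genes of both classes because their known regulators differ. RefSeq start sites of build GRCm38.p6 were listed for 29 of the 36 genes (30 sites), and the 250 bases before each were searched on both strands. The letters searched were TTTCCCGC, TTTGGCGC, TTTCGCGC and TTTGCCGC for E2F factors, TTTGAA and TTCGAA for the cell cycle homology region (CHR), and CCAAT for NF-Y. The 4 E2F words can overlap each other on opposite strands, as can TTCGAA with itself. E2F letters were in 4 of 14 replication and 1 of 16 mitosis windows, and in 1.86% of 32851 windows over all genes. For CHR letters the numbers were 2 of 14, 7 of 16 and 17.2%, and for CCAAT they were 9 of 14, 15 of 16 and 33.9%. The last 150 bases before the start site are given 5′ to 3′ on the strand of the gene, with matches in capitals, for 4 replication genes, of which Cdc6 and Mcm3 rose, and for 4 mitosis genes.
Cdc6: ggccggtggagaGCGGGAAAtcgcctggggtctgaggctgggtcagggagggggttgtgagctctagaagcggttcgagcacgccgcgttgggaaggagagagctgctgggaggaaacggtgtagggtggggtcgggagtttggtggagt
Mcm3: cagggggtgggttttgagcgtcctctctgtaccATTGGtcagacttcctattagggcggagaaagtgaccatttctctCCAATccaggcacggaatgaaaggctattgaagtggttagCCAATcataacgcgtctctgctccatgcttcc
Mcm5: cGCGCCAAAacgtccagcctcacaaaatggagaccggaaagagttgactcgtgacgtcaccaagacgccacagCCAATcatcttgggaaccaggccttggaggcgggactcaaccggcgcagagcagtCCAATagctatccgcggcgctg
Mcm6: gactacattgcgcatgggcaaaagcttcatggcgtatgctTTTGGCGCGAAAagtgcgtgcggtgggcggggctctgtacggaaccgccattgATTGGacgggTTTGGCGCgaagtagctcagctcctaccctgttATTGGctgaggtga
Top2a: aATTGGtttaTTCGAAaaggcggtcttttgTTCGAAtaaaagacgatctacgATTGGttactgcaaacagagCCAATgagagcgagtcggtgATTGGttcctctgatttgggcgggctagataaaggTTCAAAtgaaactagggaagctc
Mki67: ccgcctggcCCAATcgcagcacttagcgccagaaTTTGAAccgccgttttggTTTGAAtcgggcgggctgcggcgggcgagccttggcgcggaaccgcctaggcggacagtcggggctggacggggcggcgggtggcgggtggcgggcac
Ccnb2: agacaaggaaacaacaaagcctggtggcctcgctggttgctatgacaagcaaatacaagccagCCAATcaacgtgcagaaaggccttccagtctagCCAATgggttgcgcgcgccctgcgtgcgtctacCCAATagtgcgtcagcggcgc
Birc5: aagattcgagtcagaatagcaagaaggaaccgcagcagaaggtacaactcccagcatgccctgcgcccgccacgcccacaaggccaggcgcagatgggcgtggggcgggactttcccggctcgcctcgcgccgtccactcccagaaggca
They lie at chr11:98908001-98908150 (Cdc6, plus strand), chr1:20820313-20820462 (Mcm3, minus), chr8:75109359-75109508 (Mcm5, plus), chr1:128359706-128359855 (Mcm6, minus), chr11:99024190-99024339 (Top2a, minus), chr7:135716380-135716529 (Mki67, minus), chr9:70421555-70421704 (Ccnb2, minus) and chr11:117849087-117849236 (Birc5, plus), and hold no exon of the annotation used. The Cdc6 window lies inside the annotated gene, after the start of a longer transcript. Cdc6, which rose, had 1 E2F match, and Mcm3, which also rose, had 3 CCAAT matches and none for E2F. E2f1 and Rrm2 rose too, and their windows, not shown, held no E2F letters. The E2f1 window, however, lies inside the annotated gene, and its last 150 bases are all exon of E2f1. The bases before the annotated start of E2f1 were therefore not searched. Ccne2 had no listed start site. Cdc6, Mcm5 and Mcm6 are among the 4 of 14 replication windows with E2F letters. The replication windows shown therefore hold these letters more often than the 14 do. Mcm6, with 3 E2F matches of which 2 overlapped, did not pass the test. Top2a held 3 CHR and 4 CCAAT matches in the shown window. A match of letters is not a site of binding.

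The wider pathway was read from 4 further lists with 134 genes, all tested. Of 38 other replication genes, edgeR called 0 in either direction, although 19 were higher at an unadjusted p under 0.05 (DESeq2 called 12 higher and limma-voom 0), 18 were higher without overlap between groups and 33 had a log2 fold change above 0, with a median of 0.20. Over all genes, 13.4% were higher at that unadjusted p, 8.91% were called higher by DESeq2 and 11.3% were higher without overlap. The gene with the lowest p was Mcm10, which helps the helicase to start. It was at 25.9, 29.0 and 22.0 CPM and at 36.9, 31.9, 33.8 and 34.6 CPM (log2 fold change 0.42, SE 0.107, adjusted p = 0.0607). Of 61 other mitosis genes, edgeR again called 0, while 12 were higher at an unadjusted p under 0.05 (DESeq2 4, limma-voom 0), 7 were higher without overlap and 50 were above 0, with a median of 0.15. Of these counts, that of genes without overlap was near the share over all genes, and that of DESeq2 was below it. The first of them was Ncapg, a condensin subunit, at 36.9, 38.9 and 33.4 CPM and at 48.2, 44.2, 41.8 and 44.3 CPM (log2 fold change 0.29, SE 0.0816, adjusted p = 0.0728). The medians of the larger lists, 0.20 and 0.15, lay nearer to each other than those of the 16 and 20 genes, 0.25 and 0.16.

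Of 19 G1 cyclins, kinases and inhibitors, 1 rose, beside 3.36% of all genes. This was Cdkn1a, which encodes p21, an inhibitor of cyclin-dependent kinases, at 57.7, 47.0 and 48.1 CPM and at 89.8, 99.2, 81.5 and 107 CPM. Its lowest icOVA tumor was well above its highest sgScramble tumor, and the log2 fold change was 0.89 (SE 0.117, 95% interval 0.62 to 1.16, adjusted p = 0.0230), larger than that of any of the 36 genes. At an unadjusted p under 0.05, 4 of the 19 were higher and 4 lower, beside 13.4% and 13.8% of all genes. DESeq2 called 3 higher and 3 lower, and limma-voom 1 and 0. Of all 17489 genes, DESeq2 called 1558 higher and 1278 lower, and limma-voom 518 and 423. Log2 fold changes in the list ran from -0.78 to 2.92, and the gene with the largest did not pass the edgeR test. Others of the list, chosen after their values were seen, did not pass. Cdkn2a and Cdkn2b, neighbors that encode inhibitors of Cdk4 and Cdk6, had log2 fold changes of -0.78 and -0.76 (adjusted p = 0.0527 and 0.0798), and Rb1, the retinoblastoma gene, 0.39 (adjusted p = 0.0545). Cdkn2a was at 126, 102 and 133 CPM and at 50.8, 89.8, 64.3 and 76.6 CPM, without overlap.

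Of 16 genes for E2F, MuvB and FoxM1 factors, 1 fell, beside 2.54% of all genes. This was Tfdp2, a dimerization partner of E2F, at 55.8, 44.7 and 53.3 CPM and at 35.6, 39.4, 30.1 and 38.5 CPM (log2 fold change -0.51, SE 0.118, adjusted p = 0.0469). At an unadjusted p under 0.05, 5 of the 16 were higher and 1 lower, beside 13.4% and 13.8% of all genes. DESeq2 called 3 higher and 1 lower, and limma-voom 0, beside 1558 and 1278 (DESeq2) and 518 and 423 (limma-voom) of all 17489 genes. Mybl2 (B-Myb, itself transcribed at the G1 to S boundary) and Foxm1 were named after their values were seen. Mybl2 was at 14.9, 21.8 and 15.5 CPM and at 30.1, 22.8, 30.3 and 27.2 CPM (log2 fold change 0.67, SE 0.166, adjusted p = 0.0553), and Foxm1 at 98.0, 111 and 86.4 CPM and at 111, 111, 121 and 111 CPM (0.21, SE 0.0904, adjusted p = 0.182). For both, the groups did not overlap, and for both the gap to sgScramble tumor 4 was narrow.

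**Figure D5:**
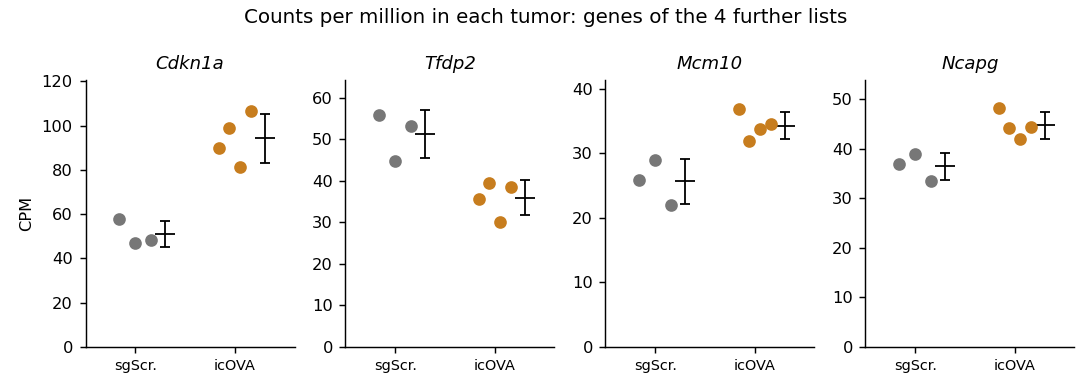
CPM (y axis, from 0) in each of 3 sgScramble (gray) and 4 sgScramble-icOVA (orange) tumors, with mean and SD, for the genes that passed the test in the further lists (Cdkn1a and Tfdp2) and for those of lowest p in lists with none (Mcm10 and Ncapg). The groups do not overlap in any panel, and Tfdp2 is the 1 gene that was lower with icOVA.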

How the data were processed

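RNA-seq counts per gene in 7 tumors were analyzed. The authors deposited raw counts, whole numbers without normalization. The labels name polyA RNA, whereas the study's methods name a stranded total RNA kit with single reads. The submitters' processing notes name mm10. The aligner, counter and annotation were not given in the sources used here. Identifiers were matched to GENCODE M21 on GRCm38 (22414 of 22628). The 36 genes, their roles and the further lists were chosen with earlier results of these data known. Low genes were removed with filterByExpr (at least 10 counts, and 15 in all), and the rest were scaled by TMM and tested with edgeR 4.0.16 in R 4.3.3, with Benjamini-Hochberg adjustment over all genes tested. Log2 CPM used a prior count of 2, and means over genes used log2 CPM. DESeq2 1.42.0, limma-voom (limma 3.58.1), other scalings and filters, and leaving out each tumor were alternatives. Values are given for every called gene and, in each of the 10 roles, for the gene of highest level and that of lowest p, and from each further list for genes past the threshold, or else that of lowest p. Scripts were tested on simulated data. Samples were individual tumors, and the labels do not name the mice. P-values set the difference between groups against the spread between tumors within a group. They do not address spread between clones of the icOVA cells. Precision is limited by 3 and 4 tumors more than by depth, which was 30904855 to 37510591 counts. Sequences were credited to RefSeq. A further allele of the cell line is not reported here.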

Additional observations from a re-analysis of the deposited data

Results flagged for a closer look

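In a test of whether 1 of the 4 icOVA tumors stood apart (the gap to its nearest neighbor over the whole range, against Dixon's 95% critical value), Mki67 was the only one of 44 values tested to stand out. Its log2 CPM in icOVA tumor 15 was 8.33 (322 CPM), whereas the other 3 icOVA tumors were at 7.90 to 7.94 (239 to 246 CPM), and the gap was 0.905 of the range. Chance alone gives about 1 in 20, which is about 2.2 of 44.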

How the results depend on the processing

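The count of genes called higher among the 36 was 5. It was 11 with DESeq2 and 3 each with limma-voom, total counts and no filter, and it ranged from 0 to 8 when 1 tumor was left out. Over all genes, 588 higher and 444 lower calls among 17489 genes became 1558 and 1278 with DESeq2. They became 518 and 423 with limma-voom and 539 and 335 with no filter. With 1 tumor left out they ranged from 0 to 1014 and from 0 to 716. In the 4 further lists the 2 calls among 134 genes became 26 with DESeq2 and 1 each with limma-voom and with no filter. With 1 tumor left out these calls ranged from 0 to 19. The cause of these moves was not tested. The median log2 fold change was 0.23 to 0.31 for the replication and 0.088 to 0.25 for the mitosis genes with 1 tumor left out. The replication minus mitosis gap was 0.15 with the mean and 0.26 with the median. Signs turned for 3 of the 36 genes, all near 0, in fits that left out 1 tumor, where the log2 fold changes ranged from -0.048 to 0.042 for Ccnb2, from -0.042 to 0.20 for Cdc20 and from -0.0099 to 0.24 for Kif20a. Cdc20 was -0.018 without icOVA tumor 18. Krt19 turned to -0.0028 with limma-voom, and ranged from -0.079 to 0.25. With all tumors kept, 237 of 252 values of the 36 genes kept their direction and their side of the threshold, 7 passed it and 8 lost it; with 1 tumor left out these numbers were 216, 8 and 24, and 4 turned. No paired analysis was possible because no number is used in both groups.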
